A study of Mus musculus with 4 samples.

Results

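Lipid-associated macrophage genes are the transcripts that mark macrophages filled with lipid, and 9 of them were followed here across the cell classes of a mouse liver tumor series: Trem2, Gpnmb, Lpl, Fabp5, Mmp12, Mmp14, Lgals3, Cd63 and Cd9. The members were taken by gene symbol, all 9 were found, and they make up 9 of the 31053 genes in the count matrix. They were measured by single-cell RNA sequencing of mouse livers in which a gene induces hepatocellular carcinoma; which gene, which strain and what age the mice had are not given in the sources used here. HCC-NL is normal liver at week 0, HCC-ES and HCC-MS are tumors at weeks 4 and 8, and HCC-LS is the latest tumor, whose label says week 10 where the text of the series says 12; each is 1 sample. The deposited matrix joins 4 libraries told apart only by a number at the end of each cell barcode, and nothing used here pairs a number with a sample. Libraries are therefore called 1 to 4, no week is read from them, and with 1 library each there is no replicate: every interval below is a 95% interval for counting error alone, and no test between conditions was made.

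TREM2 is a lipid-sensing receptor that signals through the adaptor TYROBP and is known from macrophages that take up lipid in fatty tissue, in atherosclerotic plaques and around injured liver cells. The programme that accompanies it includes lipases and fatty acid carriers that handle the lipid, lysosomal and tetraspanin membrane proteins, a galectin, and metalloproteinases that cut the extracellular matrix. In the liver such cells are usually set apart from Kupffer cells, the resident macrophages of the sinusoids, which are known by Clec4f, Vsig4, Timd4 and Cd5l.

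After filtering, 34783 cells remained, and their clusters were named from marker genes with the members and related lists kept out of the genes used for clustering. Macrophage-like cells numbered 2161 (6.21% of cells; 130, 1239, 294 and 498 in libraries 1 to 4) with a median of 1760 UMIs, or counted RNA molecules, per cell. Kupffer cell-like cells numbered 800 (2.30%; 487, 103, 160 and 50) with a median of 1431 UMIs. Markers were present as the names require: all 10 macrophage markers and all 8 Kupffer cell markers had counts in their class, and the summed Kupffer cell markers stood at 10200 CPM (counts per 1000000 UMIs) in Kupffer cell-like cells and at 968 CPM in macrophage-like cells. Summed macrophage markers, which Kupffer cells share, were 17000 CPM in Kupffer cell-like and 13400 CPM in macrophage-like cells. Part of the macrophage-like class carried more RNA of hepatocyte markers than of macrophage markers, as given below by finer cluster. The libraries differed in depth (15593960, 49975828, 24012736 and 40617071 UMIs in all), so levels are given as CPM of all UMIs of a class, and shares of cells are taken after thinning each cell to 1000 UMIs. Among analysed cells 585 barcode sequences occurred in more than 1 library, 65 macrophage-like cells carried such a sequence, and without all cells that did, Fabp5 log2 ratios of macrophage-like to Kupffer cell-like cells were 2.99 against 2.97 with them, and the counts of members led by macrophage-like cells, called against Kupffer cell-like cells, and higher in libraries 2 and 4 than in library 1 did not change.

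The promoters of Trem2, Gpnmb and Mmp12 are shown because the levels of these 3 genes had the closest pattern among the members over classes and libraries. Each window holds the 250 bases before a transcription start, 5′ to 3′ on the gene's strand, from RefSeq on GRCm38.p6, while the counts were made on mm9 per the labels; no position is carried from one to the other. Capitals mark matches on either strand to an AP-1 motif (TGANTCA), a PU.1 motif (GAGGAA, read as TTCCTC on the other strand) or an E-box variant (CATGTG, read as CACATG).
Trem2, chr17:48346151-48346400, plus strand: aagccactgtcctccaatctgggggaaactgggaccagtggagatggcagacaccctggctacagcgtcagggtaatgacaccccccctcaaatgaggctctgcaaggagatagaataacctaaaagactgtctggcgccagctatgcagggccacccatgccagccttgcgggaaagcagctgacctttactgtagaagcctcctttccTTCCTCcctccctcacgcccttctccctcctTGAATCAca
Gpnmb, chr6:49036268-49036517, plus strand: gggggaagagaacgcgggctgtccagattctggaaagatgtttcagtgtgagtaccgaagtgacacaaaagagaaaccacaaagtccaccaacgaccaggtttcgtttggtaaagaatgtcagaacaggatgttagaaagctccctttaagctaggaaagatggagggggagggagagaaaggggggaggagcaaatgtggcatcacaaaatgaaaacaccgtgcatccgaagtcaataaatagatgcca
Mmp12, first start, chr9:7344147-7344396, plus strand: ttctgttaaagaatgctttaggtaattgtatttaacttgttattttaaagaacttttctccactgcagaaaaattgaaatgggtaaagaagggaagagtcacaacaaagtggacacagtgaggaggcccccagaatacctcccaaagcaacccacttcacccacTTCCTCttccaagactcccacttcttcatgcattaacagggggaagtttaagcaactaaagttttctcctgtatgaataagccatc
Mmp12, second start, chr9:7347124-7347373, plus strand: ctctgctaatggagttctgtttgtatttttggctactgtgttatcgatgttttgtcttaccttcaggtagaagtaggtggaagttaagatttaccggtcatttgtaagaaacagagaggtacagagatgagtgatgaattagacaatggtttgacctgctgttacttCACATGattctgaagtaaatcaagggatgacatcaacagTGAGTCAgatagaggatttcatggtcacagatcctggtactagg

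Windows were found for 7 of the 9 members. AP-1 letters stood in Trem2, 9 bases before the start, and in the second Mmp12 window, 44 bases before it, against 6.75% of the 32851 windows of this length in the table. PU.1 letters stood in Trem2, Mmp12 and Cd63 against 23.3% of all windows, and the E-box variant in Mmp12 and Cd9 against 12.3%. The E-box CACGTG of the MITF and TFE family, the DR1 motif of PPAR-RXR, the DR4 motif of LXR-RXR and TATAAA matched in none of the 7 genes, against 6.02%, 0.0335%, 0.0152% and 12.4% of all windows. A match describes letters in a window, and the counts of RNA do not show what binds there.

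Macrophage-like cells had the highest level of 5 members (Gpnmb, Mmp12, Fabp5, Lgals3 and Cd63), Kupffer cell-like cells that of 2 (Trem2 and Lpl), neutrophil-like cells that of Cd9 and sinusoidal endothelial cell-like cells that of Mmp14. With libraries at equal weight macrophage-like cells led for 2 members, Gpnmb and Lgals3: Mmp12 then stood at 451 CPM against 601 CPM in Kupffer cell-like cells, Fabp5 at 576 CPM against 617 CPM in vascular endothelial cell-like cells, and Cd63 at 494 CPM against 589 CPM in the stellate cell or fibroblast-like class. Without library 2 they led for 3. Trem2, Gpnmb and Mmp12 were nearly confined to the macrophage classes by their share of UMIs: macrophage-like cells held 72.3%, 79.9% and 83.9% of all their UMIs while being 6.21% of the cells. Lgals3 followed with 71.5%. Fabp5, Lpl and Cd63 were spread more widely, and hepatocyte-like cells held 46.9%, 35.0% and 34.2% of their UMIs. The grid of levels by class shows these blocks.

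**Figure D1:**
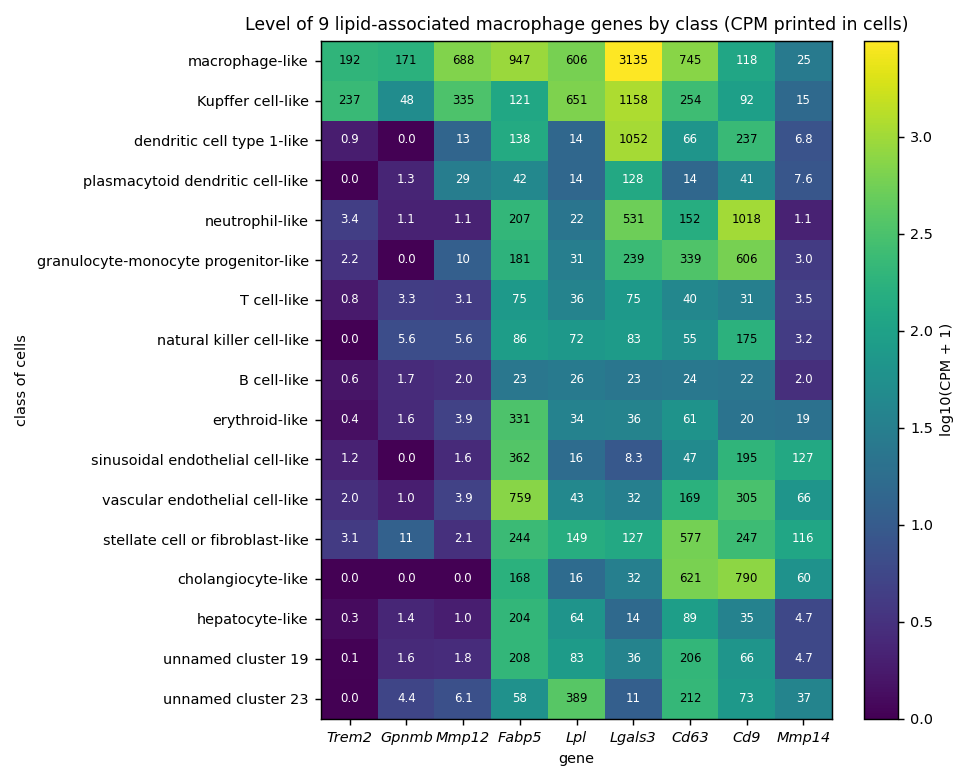
Level of each of the 9 genes (columns) in each class of cells (rows), as counts per 1000000 UMIs of the class printed in the cell and coloured as log10(CPM + 1). Trem2, Gpnmb and Mmp12 exceed 30 CPM in the macrophage-like and Kupffer cell-like rows alone, while Fabp5 and Cd9 exceed 20 CPM in all rows.

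Trem2 (ENSMUSG00000023992), the lipid-sensing receptor, stood at 237 CPM (214 to 261) in Kupffer cell-like cells and at 192 CPM (181 to 203) in macrophage-like cells, a ratio of 1.24 (1.10 to 1.38) that had the same direction in all 4 libraries. The next class, neutrophil-like cells, had 3 UMIs in all, 3.40 CPM. In T cell-like cells, which serve as background for RNA from other cells, it was 0.787 CPM. No class outside these 2 exceeded the neutrophil-like level. In libraries 1 to 4 macrophage-like cells had 79.6, 209, 136.5 and 181 CPM. Kupffer cell-like cells had 101, 384, 200.5 and 543 CPM. Library 1 was the lowest in both classes, and Kupffer cell-like cells of libraries 2 and 4 were the highest of the 8 values.

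Gpnmb (ENSMUSG00000029816), a lysosome-associated membrane glycoprotein of lipid-laden macrophages, was at 171 CPM (161 to 181) in macrophage-like cells, 3.53-fold (2.82 to 4.46) above Kupffer cell-like cells and higher in 3 of 4 libraries. Macrophage-like cells of library 1 had 1 Gpnmb UMI, 3.79 CPM (0.0960 to 21.1), and those of libraries 2, 3 and 4 had 205, 71.8 and 134 CPM. Library 1 lay at the level of T cell-like cells (3.34 CPM over all libraries), and the other libraries lay above it. In Kupffer cell-like cells the 4 levels were 3.71, 51.0, 32.2 and 274 CPM. Library 4 was here the highest, above all macrophage-like values, and library 1 again held 3 UMIs.

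Lpl (ENSMUSG00000015568), the lipase that frees fatty acids from lipoproteins, differed little between the pooled classes, with 651 CPM (613 to 690) in Kupffer cell-like cells and 606 CPM (587 to 626) in macrophage-like cells. By library the macrophage-like levels were 37.9, 733, 198 and 475 CPM. The Kupffer cell-like levels were 408, 1082, 580 and 777 CPM. Kupffer cell-like cells were thus higher in each of the 4 libraries, while the pool takes 1239 of its 2161 macrophage-like cells and 103 of its 800 Kupffer cell-like cells from library 2. The class with the next highest level among named classes was the stellate cell or fibroblast-like class at 149 CPM (125 to 175), and unnamed cluster 23, which carries hepatocyte markers and a median of 10.5% mitochondrial UMIs, had 389 CPM (367 to 412).

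Fabp5 (ENSMUSG00000027533), an intracellular fatty acid carrier, was at 947 CPM (923 to 972) in macrophage-like cells and at 759 CPM (733 to 786) in vascular endothelial cell-like cells, and the direction of that difference held in 2 of 4 libraries. Macrophage-like cells had 41.7, 1108, 242 and 912 CPM in libraries 1 to 4. In Kupffer cell-like cells the levels were 27.2, 186, 89.5 and 434 CPM. Libraries 2 and 4 stood above libraries 1 and 3 in both classes. Vascular endothelial cell-like cells had 354, 999, 323 and 791 CPM, which put them above macrophage-like cells in libraries 1 and 3 and below them in libraries 2 and 4. Hepatocyte-like cells showed another order, with 67.5, 326, 359 and 47.1 CPM, so that library 4 was low there.

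Mmp12 (ENSMUSG00000049723), the macrophage elastase, stood at 688 CPM (668 to 709) in macrophage-like cells and at 335 CPM (308 to 363) in Kupffer cell-like cells. Plasmacytoid dendritic cell-like cells came next with 29.1 CPM (18.5 to 43.7). The macrophage-like levels by library were 102, 785, 219 and 696 CPM. The Kupffer cell-like levels were 3.71, 332, 566 and 1503 CPM. Kupffer cell-like cells of library 1 had 3 Mmp12 UMIs among 487 cells, and those of library 4 had 263 UMIs among 50 cells, the highest level of the 8. Which class led therefore depended on the library: macrophage-like cells in libraries 1 and 2, Kupffer cell-like cells in libraries 3 and 4.

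Mmp14 (ENSMUSG00000000957), a membrane-bound collagenase, was highest in endothelial and stromal classes. It had 127 CPM (114 to 142) in sinusoidal endothelial cell-like cells and 116 CPM (95.1 to 139) in stellate cell or fibroblast-like cells, a ratio of 1.10 (0.884 to 1.37) that does not separate them. Sinusoidal endothelial cell-like cells had 132, 98.4, 115 and 115 CPM in libraries 1 to 4. Macrophage-like cells had 26.5, 26.0, 16.2 and 27.3 CPM, with intervals that overlap in all libraries. T cell-like cells had 3.54 CPM.

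Lgals3 (ENSMUSG00000050335), a galectin that is a usual sign of activated macrophages, was at 3135 CPM (3091 to 3180.0) in macrophage-like cells, 2.71-fold (2.58 to 2.84) above Kupffer cell-like cells at 1158 CPM, and dendritic cell type 1-like cells followed at 1052 CPM. It was detected in 65.1% of thinned macrophage-like cells. By library macrophage-like cells had 1372, 3687, 1406 and 2381 CPM. In Kupffer cell-like cells the levels were 435, 2068, 634 and 2994 CPM. Libraries 1 and 3 were alike within macrophage-like cells (log2 ratio 0.04, -0.15 to 0.22), and libraries 2 and 4 were the higher ones in both classes.

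Cd63 (ENSMUSG00000025351), a tetraspanin of lysosomes and exosomes, stood at 745 CPM (724 to 767) in macrophage-like cells, 621 CPM (558 to 689) in cholangiocyte-like cells and 577 CPM (530 to 627) in stellate cell or fibroblast-like cells. The lead of macrophage-like cells over cholangiocyte-like cells was absent in both libraries that had 20 cells of each. Macrophage-like cells had 212, 868, 221 and 674 CPM by library. Kupffer cell-like cells had 30.9, 514, 197 and 703 CPM. Hepatocyte-like cells had 0.867, 174.5, 18.7 and 88.6 CPM. Library 2 was highest in macrophage-like and hepatocyte-like cells, library 4 in Kupffer cell-like cells, and library 1 lowest in all 3.

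Cd9 (ENSMUSG00000030342), a tetraspanin of the plasma membrane, peaked in the neutrophil-like class at 1018 CPM (953 to 1087), followed by cholangiocyte-like cells at 790 CPM (718 to 866) and granulocyte-monocyte progenitor-like cells at 606 CPM (566 to 650). Macrophage-like cells had 118 CPM (110 to 127), with 171, 106, 104 and 157 CPM in libraries 1 to 4. Kupffer cell-like cells had 12.4, 191, 75.2 and 234 CPM. Cd9 in macrophage-like cells was higher in library 1 than in libraries 2 and 3, whereas most other members were lowest in library 1. Libraries 1 and 4 were not separated for Cd9 (log2 ratio of library 4 to library 1 -0.121, -0.598 to 0.383).

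**Figure D2:**
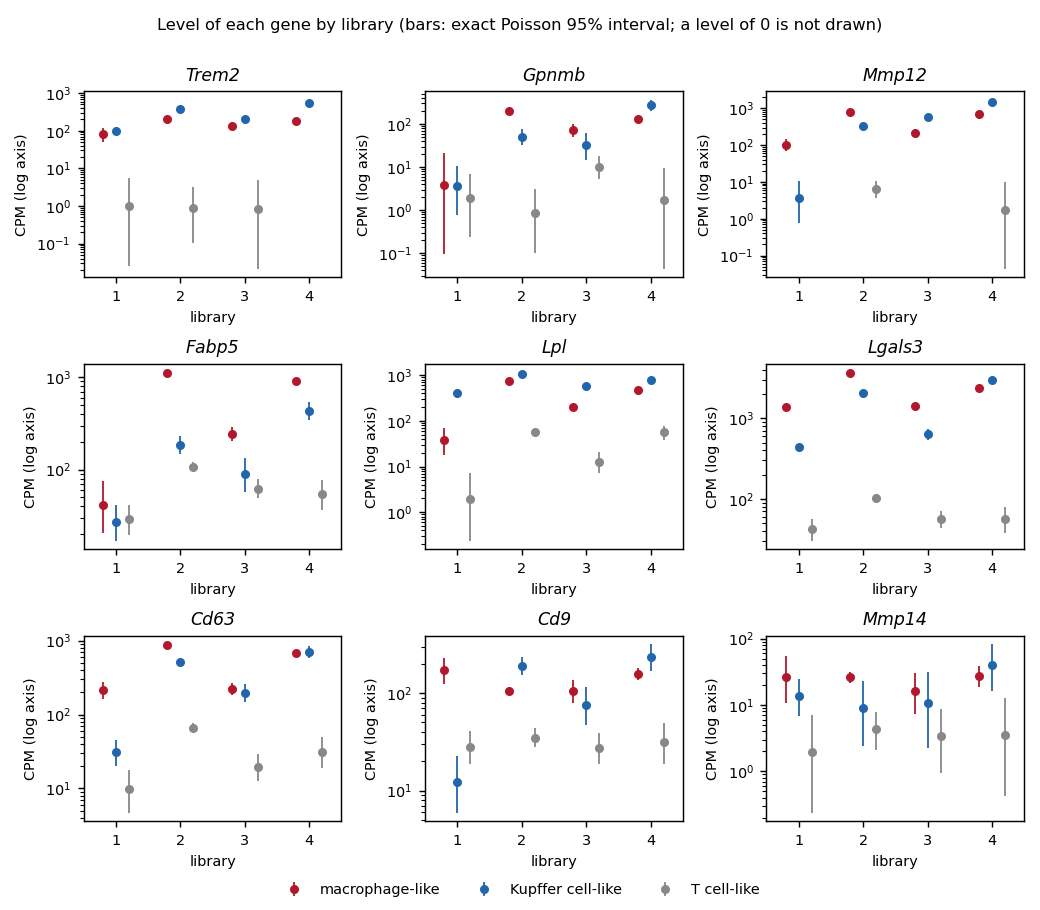
Level of each gene by library (x axis, libraries 1 to 4) in macrophage-like, Kupffer cell-like and T cell-like cells, in CPM (counts per 1000000 UMIs) on a log axis with exact Poisson 95% intervals as bars; a level of 0 is not drawn. Gpnmb, Fabp5, Lpl and Mmp12 of macrophage-like cells are lowest in library 1 and highest in library 2, whereas Mmp14 stays between 16.2 and 27.3 CPM.

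Genes with at least 100 UMIs over 2 libraries were compared between them, and all 9 members passed that limit in libraries 1 and 2. Of these, 7 were at least 2-fold higher in macrophage-like cells of library 2 than of library 1 with an interval that excludes 1 (all but Cd9 and Mmp14), where 22.9% of 5460 genes were. The largest such log2 ratios were 5.75 (3.27 to 11.1) for Gpnmb, which rests on 1 UMI in library 1, 4.73 (3.89 to 5.73) for Fabp5 and 4.27 (3.39 to 5.33) for Lpl. Library 4 against library 1 gave 6 of the 8 that passed, the same without Lgals3, where 23.9% of genes were higher. Library 3 against library 1 gave Fabp5, Lpl and Mmp12 of 6 that passed (10.4% of genes), and library 4 was higher than library 3 for Fabp5, Lpl, Mmp12 and Cd63 of 8 (16.2% of genes). Library 3 lay below library 2 by log2 ratios of -2.19 for Fabp5, -1.97 for Cd63, -1.89 for Lpl, -1.84 for Mmp12, -1.51 for Gpnmb and -1.39 for Lgals3, in a comparison where 1137 of 5689 genes were at least 2-fold lower. Between libraries 4 and 2 none of the 9 differed by 2-fold, where 0.923% of genes were higher and 1.05% lower. A gene with few UMIs in library 1 can pass the limit only through the other library, so these counts are given beside the levels above and not as support for them.

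Within Kupffer cell-like cells fewer members passed the limit. The 6 that did were each higher in library 2 than in library 1 (Trem2, Fabp5, Lpl, Mmp12, Lgals3 and Cd63), where 9.68% of 1860 genes were. Mmp12 passed on 150 UMIs in library 2 against 3 in library 1, and Cd63 on 232 against 25. Here too a gene could pass through the higher library, so the counts in this paragraph are not given as support. Library 4 against library 1 gave 4 of 5 (7.8% of genes), library 3 against library 1 gave Mmp12 of 4 (2.34%), and library 4 against library 3 gave 5 of 6 (10.6%). Library 3 was lower than library 2 for 4 of 7 (11.1%). Library 4 was higher than library 2 for Fabp5 and Mmp12 of 7, where 0.891% of 898 genes were, with log2 ratios of 1.22 (0.76 to 1.69) and 2.18 (1.88 to 2.48). Granulocyte-monocyte progenitor markers summed to 1740 CPM in the Kupffer cell-like cells of library 2, with all 6 markers present, and to at most 3.58 CPM in the other libraries, and their part in the result was not tested.

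The macrophage-like class was not made up alike in the 4 libraries. Summed monocyte markers (8 of 8 with counts in each) stood at 3170, 507, 2800 and 411 CPM, and summed hepatocyte markers at 1000, 4690, 2100 and 5670 CPM with 9 of 10 present in library 1 and 10 of 10 in the rest. Haemoglobin and other erythroid markers reached 7880 CPM in library 1 (4 of 7 present) and at most 105 CPM elsewhere. When a library's pooled profile was subtracted in proportion to the hepatocyte markers, 7 members were at least 2-fold higher in library 2 than in library 1, where 25.7% of 3214 genes were, with log2 ratios of 6.01 for Fabp5, 4.82 for Lpl and 1.82 for Trem2. A member with few UMIs in library 1 could again pass the limit through library 2 alone, so the count is not given as support. The subtracted profile was that of all analysed cells of the library. The part of hepatocyte, monocyte and erythroid RNA in these differences was not tested.

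Clustering at a finer resolution split the class into 2 groups of interest. Cluster 16, macrophage-like by its markers, held 864 cells (43, 600, 71 and 150 by library) with a median of 3410 UMIs. Cluster 29, monocyte-like with Chil3, Plac8 and F13a1 among its leading genes, held 234 cells (52, 80, 65 and 37). Monocyte-like cells made up 52 of 130 macrophage-like cells in library 1 and 80 of 1239 in library 2. Of the remaining cells, cluster 18 with 271 cells was led by Hmox1, the haem-degrading enzyme. Cluster 37 with 727 cells had a median of 966 UMIs and 2310 CPM of macrophage markers against 18600 CPM in cluster 16. Summed hepatocyte markers exceeded summed macrophage markers in both, at 11700 against 9870 CPM in cluster 18 and 9260 against 2310 CPM in cluster 37. In cluster 16 the hepatocyte markers summed to 2670 CPM. Levels of the whole macrophage-like class include the cells of clusters 18 and 37.

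Mmp12 set the macrophage-like and monocyte-like clusters apart most plainly. It had 3561 UMIs, 894 CPM, in cluster 16 and none in the monocyte-like cluster, at least 195-fold lower with 3 counts over the group as the floor. Gpnmb had 988 UMIs against 1, a ratio of 163 (29.1 to 6430.0). Cd63 was 18.3-fold (13.2 to 26.2), Lpl 13.8-fold (10.0 to 19.6), Fabp5 7.26-fold (6.03 to 8.81), Mmp14 6.86-fold (2.29 to 33.7) and Trem2 5.24-fold (3.72 to 7.60) higher in cluster 16 over all libraries, with library 2 giving 600 of the 864 cells of cluster 16 and 80 of the 234 monocyte-like ones. Within libraries the folds varied and some rest on few UMIs. Fabp5 was 4.03-fold (0.768 to 39.8), 5.29-fold (4.14 to 6.87), 1.43-fold (0.943 to 2.18) and 18.1-fold (8.30 to 49.5) higher in libraries 1 to 4. Lpl was 1.15-fold (0.215 to 6.19) higher in library 1 and 10.6-fold (6.92 to 17.1) in library 2, and Cd63 9.69-fold (6.69 to 14.6) in library 2. Lgals3 was already high in monocyte-like cells, at 2136 CPM against 4012 CPM, and its direction held in 2 of 4 libraries. Cd9 did not separate them, with 123 CPM and 124 CPM and a ratio of 0.994 (0.785 to 1.27). In this comparison 7 of 9 members were at least 2-fold higher in the pool, where 12.9% of 5386 genes were higher and 5.22% lower. A gene with few UMIs in the monocyte-like cluster could pass the limit of UMIs through cluster 16 alone, as Mmp12 and Gpnmb did. The count of members is therefore given beside the folds above and not as support for them.

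Within cluster 16 levels by library were as follows. Fabp5 stood at 66.0, 1349, 299 and 1395 CPM in libraries 1 to 4. Mmp12 stood at 254, 907, 583 and 1028 CPM, and Lpl at 37.7, 874, 425 and 697 CPM. Lgals3 stood at 782, 4414, 1533 and 3413 CPM, and library 3 was 1.96-fold (1.53 to 2.53) above library 1. The monocyte-like cells of library 1 had 2192 CPM of Lgals3. Trem2 differed less, with 141 CPM (79.1 to 233) in library 1 and 272, 299 and 282 CPM in the others. Library 1 holds only 43 cells of this cluster, with 1 UMI of Gpnmb, 7 of Fabp5 and 4 of Lpl. Summed monocyte markers in it were 339, 316, 388 and 155 CPM in libraries 1 to 4, lowest in library 4. Hepatocyte markers in it were 132, 2890, 1250 and 2500 CPM. Like Fabp5, Mmp12, Lpl, Lgals3, Cd63 and Gpnmb they were lowest in library 1 and higher in libraries 2 and 4 than in library 3. Cd63 stood at 292, 1065, 504 and 992 CPM in libraries 1 to 4. Gpnmb stood at 9.42, 275, 178.5 and 183 CPM, with libraries 3 and 4 not separated (1.03-fold, 0.697 to 1.55). Trem2 was also lowest in library 1, but its levels in libraries 2 to 4 were not separated. Library 3 was 1.10-fold (0.826 to 1.44) library 2, and library 4 was 0.944-fold (0.699 to 1.29) library 3. Cd9 and Mmp14 ran against the hepatocyte markers from library 1 to library 2, at 179 and 106 CPM for Cd9. Mmp14 stood at 66.0 and 27.8 CPM there, with 7 UMIs in library 1. The part of monocyte or hepatocyte RNA in these differences was not tested.

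**Figure D3:**
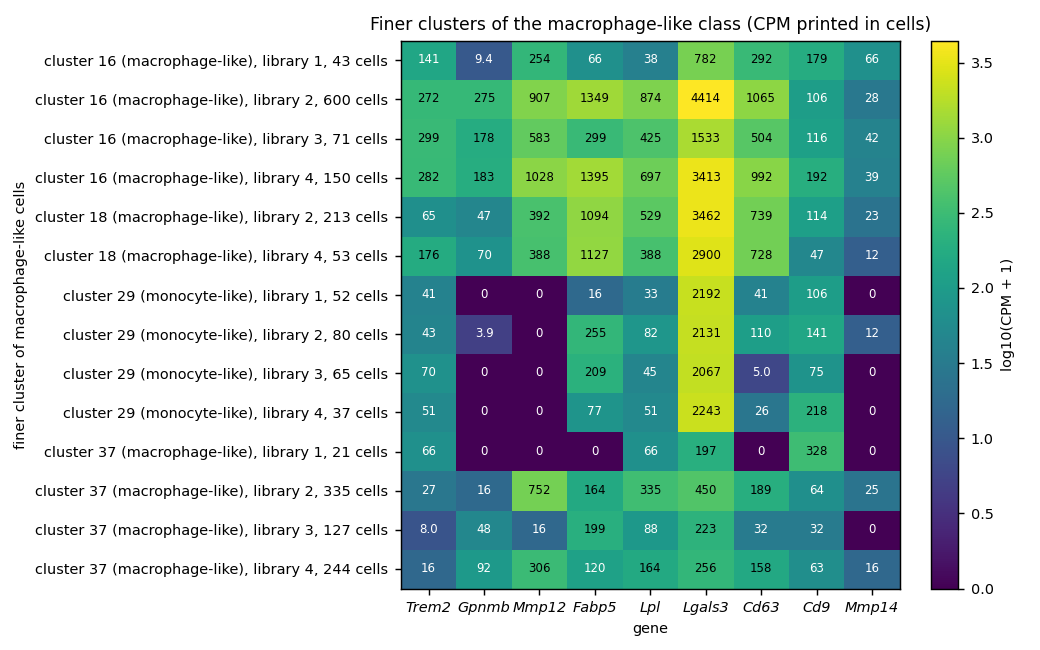
Level of the 9 genes (columns) in the finer clusters of the macrophage-like class by library (rows with at least 20 cells), CPM printed and coloured as log10(CPM + 1). The 4 monocyte-like rows read 0 for Mmp12 and between 2067 and 2243 CPM for Lgals3, while the cluster 16 rows of libraries 2 and 4 hold the highest Fabp5 and Cd63 levels.

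Whether the members told macrophage-like from Kupffer cell-like cells was read by ratios within each library. Fabp5 alone met the call, at least 2-fold in the pool with the same direction in all 4 libraries, so 1 of 9 members was higher and 0 lower, where 5.36% of 7425 genes were higher and 3.5% lower. Its log2 ratio was 2.97 (2.77 to 3.18), with 0.62, 2.57, 1.44 and 1.07 in libraries 1 to 4, an interval in library 1 that includes 0 (-0.57 to 1.72), and 1.64 when libraries had equal weight. The member median in the pool was 1.04 against 0.0581 over all genes. That median is the pooled value of Mmp12, whose log2 ratios were 4.79, 1.24, -1.37 and -1.11 in libraries 1 to 4. At equal weight of libraries the Mmp12 ratio was -0.416. The pool takes 1239 of 2161 macrophage-like cells from library 2 and 487 of 800 Kupffer cell-like cells from library 1.

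Trem2 and Lpl pointed the other way in each library. The log2 ratios of Trem2 were -0.35, -0.88, -0.56 and -1.59, and those of Lpl were -3.43, -0.56, -1.55 and -0.71. At equal weight of libraries Trem2 came to -1.02 and Lpl to -0.98. No interval was computed at equal weight, so Trem2 met the call as lower there without the interval rule. Pooled values were nearer to 0, at -0.31 (-0.47 to -0.14) for Trem2 and -0.10 (-0.20 to -0.00) for Lpl. Mmp12, Gpnmb, Cd9 and Lgals3 had intervals off 0 in opposite directions in different libraries. Mmp12 was higher in macrophage-like cells of library 1 (4.79) and lower in library 3 (-1.37), and Gpnmb was higher in library 2 (2.01) and lower in library 4 (-1.04). Cd63 and Mmp14 were below 0 in library 4 alone, with intervals that include 0 there (-0.34 to 0.23 and -1.76 to 0.87). Without library 4 the count of members called higher was 5 (Gpnmb, Fabp5, Mmp14, Lgals3 and Cd63), where 6.16% of 6789 genes were higher. That library holds 50 Kupffer cell-like cells. With all libraries kept, the count was 4 with the lists kept in the clustering (4.69% of genes), 3 with free RNA subtracted (4.87%) and 3 with finer cluster 16 in place of the whole macrophage-like class (2.69%).

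**Figure D4:**
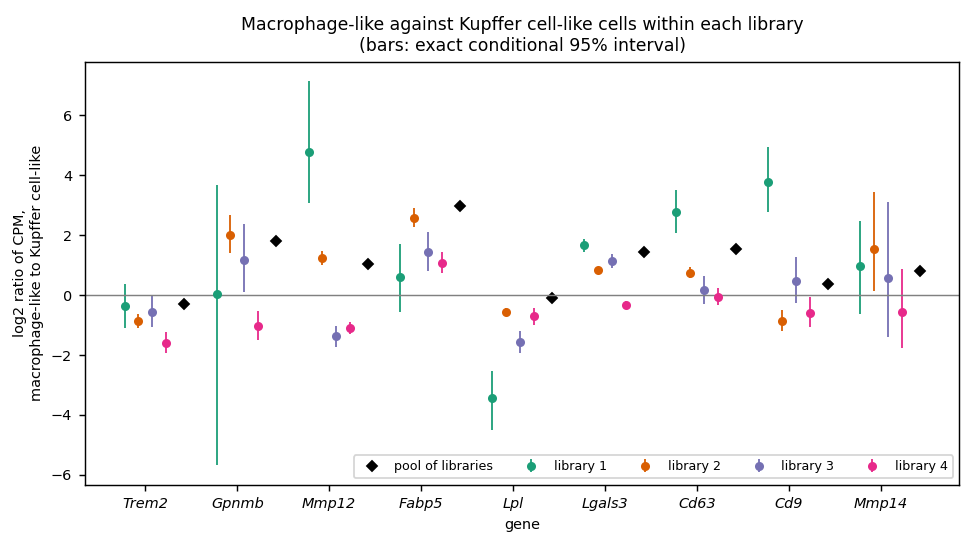
Log2 ratio of CPM in macrophage-like to Kupffer cell-like cells for each gene in libraries 1 to 4 (circles, bars are exact conditional 95% intervals) and in the pool (diamonds); 0 is no difference. Fabp5 lies above 0 and Trem2 and Lpl below 0 in all 4 libraries, while Mmp12 and Cd9 cross it.

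Against classes further away most members stood higher in macrophage-like cells. Against T cell-like cells 9 of 9 met the call, where 13.9% of 8716 genes were higher. Against hepatocyte-like cells 8 did, where 24.5% of 11463 genes were higher; Fabp5 was the exception because its direction was reversed in libraries 1 and 3 (-0.70 and -0.57). Against neutrophil-like cells 7 were higher and Cd9 lower by a log2 ratio of -3.11 (-3.25 to -2.97), where 33.5% of 6963 genes were higher and 6.64% lower. Dendritic cell type 1-like cells gave 7 higher and Cd9 lower, where 14.2% of 7569 genes were higher and 5.18% lower. A gene with few UMIs in the other class could pass the limit of UMIs through macrophage-like cells alone. Mmp12 did so, with 4257 UMIs against 16 in T cell-like cells and 1 in neutrophil-like cells. The counts of members in this paragraph are therefore not given as support for the levels above.

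Single cells showed how far the genes occur together. After thinning, 35.6% of 1603 macrophage-like cells had a UMI of at least 3 of the 9 genes, against 16.9% of Kupffer cell-like cells, 0.202% of hepatocyte-like cells and 0.177% of T cell-like cells. Without thinning the share in macrophage-like cells was 44.2%. By library it was 3.30%, 41.9%, 13.5% and 36.3% of macrophage-like cells. In Kupffer cell-like cells of libraries 1 to 3 it was 2.56%, 50.5% and 13.2%, and library 4 had fewer than 50 such cells at this depth. Library 2 thus had the highest share and library 1 the lowest, among all 4 libraries in macrophage-like cells and among libraries 1 to 3 in Kupffer cell-like cells. The pooled gap between the 2 classes was not seen within these 3 libraries. Their shares were close in libraries 1 and 3, and Kupffer cell-like cells had the higher share in library 2. The pool takes 1038 of 1603 macrophage-like cells from library 2 and 312 of 539 Kupffer cell-like cells from library 1.

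**Figure D5:**
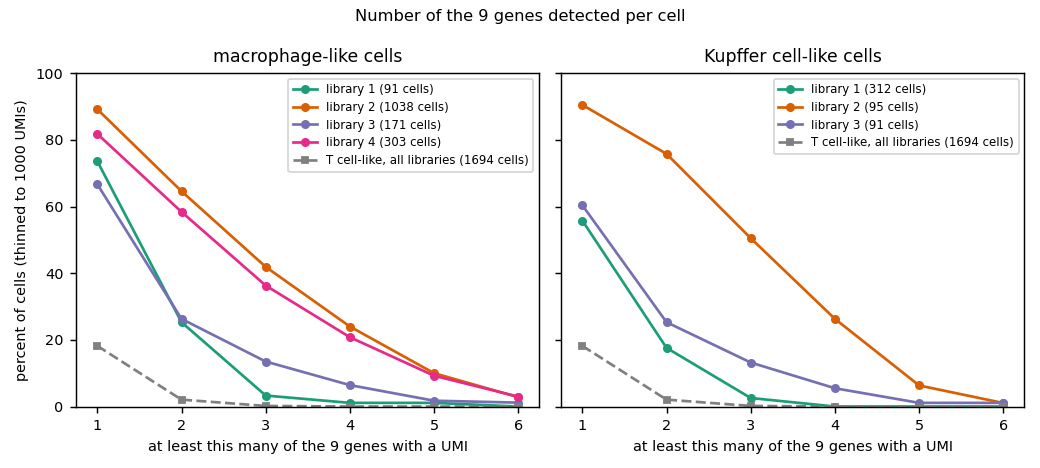
Percent of cells (y axis) with a UMI of at least 1 to 6 of the 9 genes (x axis) after thinning to 1000 UMIs, by library, in macrophage-like (left) and Kupffer cell-like cells (right), with T cell-like cells as a dashed line. The macrophage-like curves of libraries 2 and 4 lie above those of libraries 1 and 3 from 2 genes upward.

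Detection of members in the same cells was weakly related, and not in every library. Over the 36 pairs the phi coefficient, a correlation of detection across cells, had a median of 0.0952 in macrophage-like cells (-0.0285 to 0.276) and was positive for 33. By library the median was -0.0222 in library 1, with 13 of 28 pairs positive, and 0.0802, 0.0998 and 0.101 in libraries 2 to 4. In Kupffer cell-like cells of library 1 it was -0.0079, with 12 of 36 positive. The cells share libraries and differ in class makeup, so the same was read within cluster 16, where the median was 0.102. There Gpnmb was detected in 24.0% of the 121 cells with Trem2 and in 5.94% of cells without it. Fabp5 and Lgals3 had the highest phi in it, 0.266, with Lgals3 in 90.4% of cells with Fabp5 and 67.3% of the others. Mmp14 was detected in 23 of 828 cells, and its phi with the other genes lay between -0.0602 and 0.0341.

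Across 54 sums of 1 class in 1 library, from 15 classes, the level of each member on a log2(CPM + 20) scale was set against 10592 genes with at least 500 UMIs; these correlations share libraries and depth and are a description. Trem2 was most like C3ar1 (Pearson r = 0.958), Spic (0.955) and C1qa (0.952), all genes of macrophages. Gpnmb was most like Mmp12 (0.885), Mmp13 (0.871) and Trem2 (0.841), and Mmp12 most like Mmp13 (0.936), Trem2 (0.896) and Hpgds (0.894). Gpnmb thus had both other members of this trio among its 3 nearest genes, Mmp12 had Trem2, and Trem2 had neither. Lpl was closest to Lrp1 (0.878), Lipa (0.861) and Axl (0.842), and Lgals3 to Basp1 (0.898). Mmp14 was closest to Sparc (0.912), a matrix protein of stromal cells, and Cd9 to Anxa2 (0.748). Fabp5 (Cdkn1a, 0.742) and Cd63 (H6pd, 0.700) had no gene as near. Mmp14 and Lgals3 ran slightly against each other (-0.20).

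Genes around the receptor were compared between macrophage-like and Kupffer cell-like cells with the same call. Measured here means at least 100 UMIs over both classes. Of all 7425 genes measured, 5.36% were higher and 3.5% lower by this call, the shares to set beside the count of each list below. All 14 listed genes of TREM2 signalling were measured, and 2 were higher (Ms4a4a, log2 ratio 4.07, and Vav3, 1.80) and 2 lower (Adam10, the sheddase that cleaves TREM2, at -2.08, and the adaptor Hcst at -1.36). Tyrobp, its main adaptor, had its top level, 7902 CPM, in plasmacytoid dendritic cell-like cells, and it stood at 2826 CPM in macrophage-like and 4087 CPM in Kupffer cell-like cells. Trem1, a related receptor of inflammation, led in neutrophil-like cells at 712 CPM, 86.5-fold (48.0 to 174) above the next class. The median log2 ratio of the TREM2 signalling list was -0.19 beside 0.0581 for all genes.

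Fabp5 has relatives that were compared in the same way. Of 6 listed fatty acid binding proteins 4 were measured, none was higher and Fabp7 was lower at -4.90 (-5.19 to -4.62), with 18.9 CPM in macrophage-like and 565 CPM in Kupffer cell-like cells, the reverse of Fabp5. Fabp4 led in vascular endothelial cell-like cells at 4631 CPM and Fabp1 in hepatocyte-like cells at 13170.0 CPM. Around the lipase 8 of 14 listed genes were measured, and 2 were higher (Mgll, a lipase of monoglycerides, at 2.08, and Angptl8 at 1.98) and none lower. Angptl8 led in hepatocyte-like cells at 57.9 CPM against 20.7 CPM in macrophage-like cells, and summed hepatocyte markers (10 of 10 present in both) were 4480 CPM in macrophage-like and 1570 CPM in Kupffer cell-like cells; their part in that call was not tested. Gpihbp1, which holds lipoprotein lipase on capillaries, led in sinusoidal endothelial cell-like cells at 1412 CPM, and Lipa, the lysosomal acid lipase, in Kupffer cell-like cells at 468 CPM.

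Of 17 listed genes of lipid uptake, storage and efflux 16 were measured, 1 was higher (Dgat1, 1.12) and 3 were lower: the scavenger receptor Msr1 (-1.43), the cholesterol-esterifying enzyme Soat1 (-1.29) and the lipoprotein receptor Lrp1 (-1.01). Kupffer cell-like cells led for 8 of these genes, Apoe at 24940.0 CPM among them, and macrophage-like cells for Plin2, a lipid droplet coat protein, at 548 CPM and for Pparg at 81.3 CPM. None of the 17 measured of 18 lysosome genes and none of the 7 measured of 9 tetraspanins and partners met the call in either direction, with medians of 0.0541 and -0.18. Macrophage-like cells led for 8 lysosome genes, among them Cd68 at 1141 CPM and Atp6v0d2, a proton pump subunit, at 179 CPM against 30.9 CPM in Kupffer cell-like cells.

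Mmp12 had a companion in Mmp13, the collagenase, which led in macrophage-like cells at 178 CPM, 3.00-fold (2.45 to 3.71) above Kupffer cell-like cells. Other genes of its list led elsewhere, among them Mmp9 in neutrophil-like cells at 555 CPM, and Mmp2 with the inhibitors Timp1 and Timp2 in the stellate cell or fibroblast-like class at 146.5, 134 and 611 CPM. Of 12 listed metalloproteinases, inhibitors and partners 6 were measured, none was higher and Cd44 was lower (-1.20). Of 4 measured galectins of 6 Lgals1 was higher (2.16, 2.02 to 2.30). Of 12 other lipid-associated macrophage genes 9 were measured and 3 were higher, Spp1 (3.53), Syngr1 (3.47) and Itgax (2.12), and Axl was lower (-1.07). Spp1, osteopontin, led not in macrophage-like but in cholangiocyte-like cells.

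Outside the immune classes Lpl and Cd63 varied among hepatocyte-like clusters. Cd63 ranged from 1.15 CPM (0.498 to 2.27) in cluster 5 to 248 CPM (242 to 256) in cluster 20, whose leading genes include the fetal genes Afp, H19 and Dlk1. Lpl ranged over the same 2 clusters from 1.15 to 175 CPM (170 to 181). Cluster 20 had 2, 1119, 88 and 665 cells in libraries 1 to 4 and cluster 5 had 3606, 0, 162 and 0, and library 3 alone held 20 or more cells of both. Within library 3 Cd63 was at 183 CPM (156 to 213) in cluster 20 and had 2 UMIs, 8.10 CPM (0.981 to 29.3), in cluster 5. Lpl was at 194 CPM (166.5 to 225) in cluster 20 and had 0 UMIs in cluster 5, which allows up to 12.2 CPM.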

How the data were processed

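The authors deposited a matrix of UMI counts that Cell Ranger 6.0.1 wrote, per the file headers, with mm9 as the build, per the submitters' processing notes. No source used here gives the annotation, or says whether libraries were brought to a common depth. The members and gene lists were chosen with earlier results of these data known.

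From 38072 barcodes those with under 200 genes, under 500 UMIs or at least 20% mitochondrial UMIs were removed, and 1367 with a Scrublet score above 0.25 were removed as doublets (expected rate 8%; the automatic limits marked 782, none of them in libraries 2 and 4). Cells were clustered in scanpy 1.11.5 (10000 counts per cell, 2000 variable genes without the members and lists, 30 components, 15 neighbours, Leiden resolution 1) and named by markers, of which at least 3 had to be detected in 10% of a cluster's cells. Library depth was 15593960 to 49975828 UMIs, and median UMIs per cell 1287 to 3369.

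Counts were summed per class and library to CPM with exact Poisson intervals, ratios had exact conditional binomial intervals and shares exact Clopper-Pearson intervals (scipy 1.17.1), all at 95% and for counting error only. A call needed at least 100 UMIs over both classes, a 2-fold ratio, an interval that excludes 1 and 1 direction in every library with 20 cells of each. All 9 members were named, with up to 4 called and up to 4 leading genes of each list and the 3 genes most like each member. The code was tested on simulated counts. Alternatives were the doublet rule, a stricter filter, resolutions 0.5 and 2.0, lists kept in the clustering, thinning, each library left out, equal weights, no minimum of UMIs and subtraction of free RNA; restricting to finer cluster 16 and leaving out shared barcodes were added after seeing the data.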

Additional observations from a re-analysis of the deposited data

Results flagged for a closer look

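Gpnmb, Cd9, Mmp12 and Lgals3 each had at least 1 library in which macrophage-like cells stood above Kupffer cell-like cells. Each also had at least 1 in which they stood below, with intervals that exclude no difference on both sides. The difference between the libraries was not itself tested. The log2 ratio of Gpnmb, the lysosomal glycoprotein, was 2.01 and 1.16 in libraries 2 and 3 and -1.04 in library 4. That of Cd9, the tetraspanin, was 3.79 in library 1 and -0.851 and -0.579 in libraries 2 and 4. Mmp12, the elastase, had 4.79 and 1.24 in libraries 1 and 2 and -1.37 and -1.11 in libraries 3 and 4. Lgals3, the galectin, had 1.66, 0.834 and 1.15 in libraries 1 to 3 and was below 0 in library 4 alone (-0.331). In library 1 the Kupffer cell-like cells held 3 UMIs of Mmp12 and 10 of Cd9.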

How the results depend on the processing

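No paired analysis was possible because each group has 1 sample and no source pairs libraries with samples. Of the recomputed counts and shares 79 stayed within 1.5 times or their interval and 14 moved; of log2 ratios 66 stayed within their interval and 60 moved, and of CPM levels 51 and 84. The count of members called higher in macrophage-like than Kupffer cell-like cells, 1 as reported, was 2 with the stricter filter (Fabp5, Lgals3) and 2 at resolution 2.0 (Fabp5, Cd63), 3 with free RNA subtracted and 3 in finer cluster 16 (Fabp5, Lgals3, Cd63), and 4 with the lists kept in the clustering (Gpnmb, Fabp5, Lgals3, Cd63); leaving out a library gave 1 to 5, with 5 without library 4. List genes called lower, 8 as reported, were 16 at equal weight, where the call had no interval rule, and 5 with free RNA subtracted. Members led by macrophage-like cells, 5 as reported, were 2 at equal weight and 3 to 6 with a library left out, 3 without library 2. The share of macrophage-like cells with at least 3 members, 35.6%, was 16.3% thinned to 500 UMIs, 44.2% with no thinning and 24.1% to 38.3% with a library left out, the lowest without library 2. The cause of these moves was not tested. The log2 ratio stayed above 0 in all 15 settings for Fabp5 (1.64 to 3.79), Gpnmb (0.197 to 2.98), Lgals3 (0.529 to 1.86), Cd63 (0.451 to 1.99) and Mmp14 (0.262 to 1.20); Trem2 ran from -1.02 to 0.197, Lpl from -0.98 to 0.298, Mmp12 from -0.416 to 1.76 and Cd9 from -0.499 to 1.34. Resolution 0.5 gave no Kupffer cell-like class and so no ratio. Macrophage-like cells of library 1 number 130, which limits the precision of their values.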
